A study of Homo sapiens with 8 samples.

Results

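The cytosolic heat shock chaperones are 10 genes chosen by name: HSP90AA1, HSP90AB1, HSPA8, HSPA1A, HSPA1B, HSPH1, DNAJB1, DNAJA1, BAG3 and HSPB1. All 10 were among the 58302 gene identifiers of the count table, and all 10 passed the filter on low counts that left 14133 genes to test. Their mRNA was measured by RNA sequencing in DLD1, a human line from a colorectal cancer. The OE-WT cells stably overexpressed wild-type TRMT6/61A, the enzyme that methylates adenosine 58 of tRNA to m1A, and the CTRL cells carried the empty lentiviral vector. Each group had 2 libraries, and the labels list 2 lanes for each library that the table does not separate. Cells of both groups were washed in cycloheximide, a translation inhibitor, before lysis, and RNA was taken from the cleared lysate. Whether the cells were clones or pools, and which promoter drove the transgenes, was not stated in the sources used here.

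Cytosolic chaperones hold newly made or unfolded proteins until they fold. HSP70 proteins bind short hydrophobic stretches in an ATP-driven cycle: J-domain proteins deliver the substrate, and nucleotide exchange factors release it. HSP90 acts later, with co-chaperones, on nearly folded clients such as kinases and steroid receptors. When unfolded protein builds up, heat shock factor 1 (HSF1) binds heat shock elements, which are inverted repeats of a 5-base unit, in the promoters of many of these genes and raises their transcription.

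The heat shock elements of the members are shown here because they are the promoter feature that this family is known for. The RefSeq promoter windows (GRCh38.p14) run from 250 bases before to 50 bases after each annotated start. All 10 members matched at least 1 window. HSP90AA1 has 2 windows, and HSP90AB1 and DNAJB1 have 3 each, at different annotated starts. Their stretches below come from window 2 of HSP90AA1, window 3 of HSP90AB1 and window 2 of DNAJB1. Window 1 of each of these genes held no pair and no run of 3. Capitals mark a pair of facing units, GAANNTTC or TTCNNGAA, or a run of 3 units, GAANNTTCNNGAA or TTCNNGAANNTTC. Both strands were searched, each run of 3 contains 2 overlapping pairs, and each stretch is read 5′ to 3′ on the gene's strand.
HSP90AA1, chr14:102087080-102087157, minus strand: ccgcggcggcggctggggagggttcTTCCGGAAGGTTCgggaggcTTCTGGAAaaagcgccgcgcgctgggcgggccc
HSP90AB1, chr6:44247753-44247868, plus strand: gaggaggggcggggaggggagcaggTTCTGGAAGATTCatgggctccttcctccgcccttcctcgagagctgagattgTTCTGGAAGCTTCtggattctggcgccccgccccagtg
HSPA8, chr11:123062171-123062199, minus strand: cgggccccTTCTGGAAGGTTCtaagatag
HSPA1A, chr6:31815412-31815469, plus strand: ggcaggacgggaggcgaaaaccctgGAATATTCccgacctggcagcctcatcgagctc
HSPA1B, chr6:31827608-31827665, plus strand: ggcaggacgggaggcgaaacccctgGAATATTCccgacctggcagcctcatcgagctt
DNAJB1, chr19:14518412-14518499, minus strand: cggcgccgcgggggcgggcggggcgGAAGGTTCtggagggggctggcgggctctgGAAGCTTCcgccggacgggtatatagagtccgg
HSPB1, chr7:76302466-76302523, plus strand: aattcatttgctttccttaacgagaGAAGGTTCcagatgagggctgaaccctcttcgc

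A pair of facing units was in the windows of 8 of 10 members, against 16.2% of the 27305 genes with a window (13.5% of all 35116 windows). A run of 3 units was in 4 of 10 members (HSP90AA1, HSP90AB1, HSPA8 and DNAJA1), against 0.608% of genes and 0.49% of windows. The run of 3 in DNAJA1 lies from base 4 to base 16 after the annotated start. The windows of HSPH1 and BAG3 held neither form, which says only that these letters are not in that window. The letters TATAAA of a TATA box, searched on both strands, were in HSPA1A and HSPA1B among the members and in 14.0% of all genes. A match of letters is a description and not a measured binding site.

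**Figure D1:**
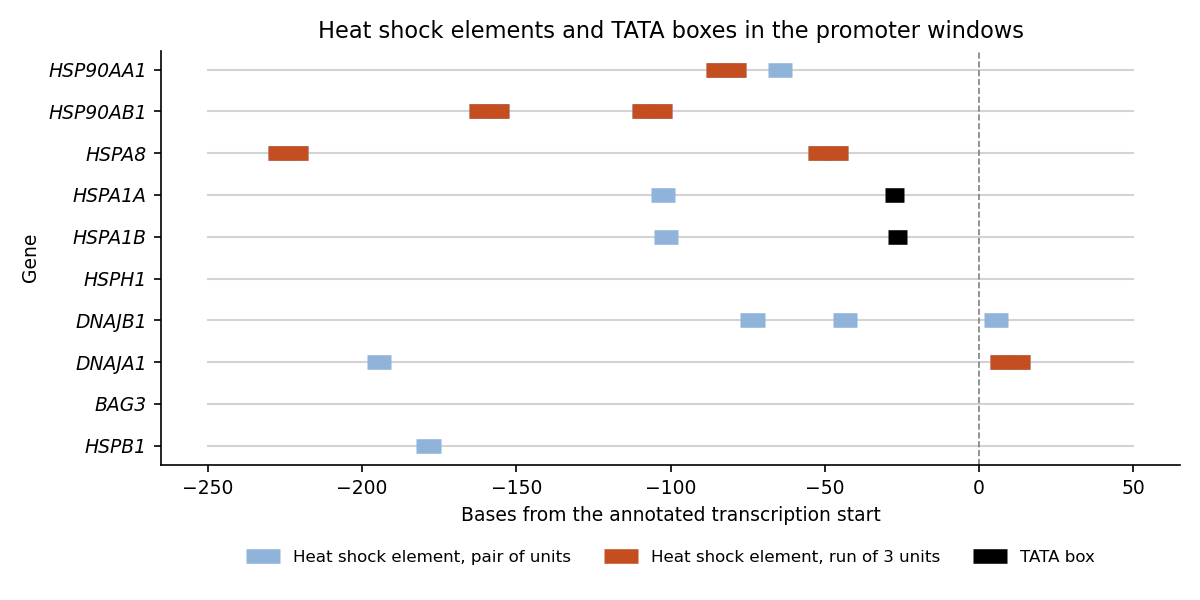
Matches in the promoter windows of the 10 members; the x axis is the distance in bases from the annotated transcription start, and for genes with several windows the matches are drawn against the start of their own window. Red bars are runs of 3 heat shock element units, blue bars are pairs outside such a run, and black bars are TATA boxes; HSPH1 and BAG3 have no bar.

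Counts on genes summed to between 10327498 and 12379671 per library. TRMT6 had 211 and 181 CPM (counts for each 1000000 of the TMM-scaled library total) in OE-WT against 52.6 and 55.4 in CTRL. TRMT61A had 138 and 130.4 CPM against 58.9 and 56.8, so both overexpressed genes were higher in the libraries labelled for them. EPCAM, a colon epithelial marker, had 461 to 545 CPM over the 4 libraries (log2 fold change -0.08, adjusted p = 0.503, edgeR). KRT20, the colon marker with the lowest log2 fold change, had 8.36 and 9.93 CPM in OE-WT, against 27.1 and 25.3 in CTRL. Its log2 fold change was -1.52 (adjusted p = 7.03e-08, edgeR). The highest value among these markers was 0.55 (VIL1), and CDX1 had at most 1 count in any library. The 12 colon epithelial markers summed to between 11250 and 12370 for each 1000000 counts of the raw library total, without TMM scaling. The TMM factors were 0.951 and 0.987 in OE-WT and 1.04 and 1.02 in CTRL. TMM scaling would therefore raise the OE-WT sums and lower the CTRL sums. Of the 11 markers tested, 5 fell (45.5%) while 2 rose (18.2%), beside 11.6% and 9.44% of all tested genes. The 15 stromal, endothelial and immune markers summed to between 6.68 and 10.8 on the same raw scale. COL1A2, COL3A1, DCN, CDH5 and CD3E were at 0 in every library. The sum of these 15 was 6.68 and 7.94 in OE-WT and 7.79 and 10.8 in CTRL, and 1 of the 4 tested fell.

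The 2 cytosolic HSP90 genes rose in OE-WT cells, and the 2 stress-inducible HSP70 genes among the members fell, HSPA1A at low counts. The constitutive HSP70 gene, HSPA8, did not pass the test in either direction. Of the 10 members, 2 rose and 3 fell at an adjusted p below 0.05 in edgeR's quasi-likelihood test, where the background is 9.44% of all tested genes higher and 11.6% lower. The 3 that fell were HSPA1B, HSPA1A and HSPH1. The other 5 members did not pass. The median log2 fold change of the members, OE-WT over CTRL, was -0.03, and that of all tested genes was 0.01. The libraries of the groups did not overlap for 8 members, and with 2 libraries a group this was so for 60.2% of all tested genes. In bulk RNA, fewer cells that carry a transcript and less of it in each cell cannot be told apart.

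**Figure D2:**
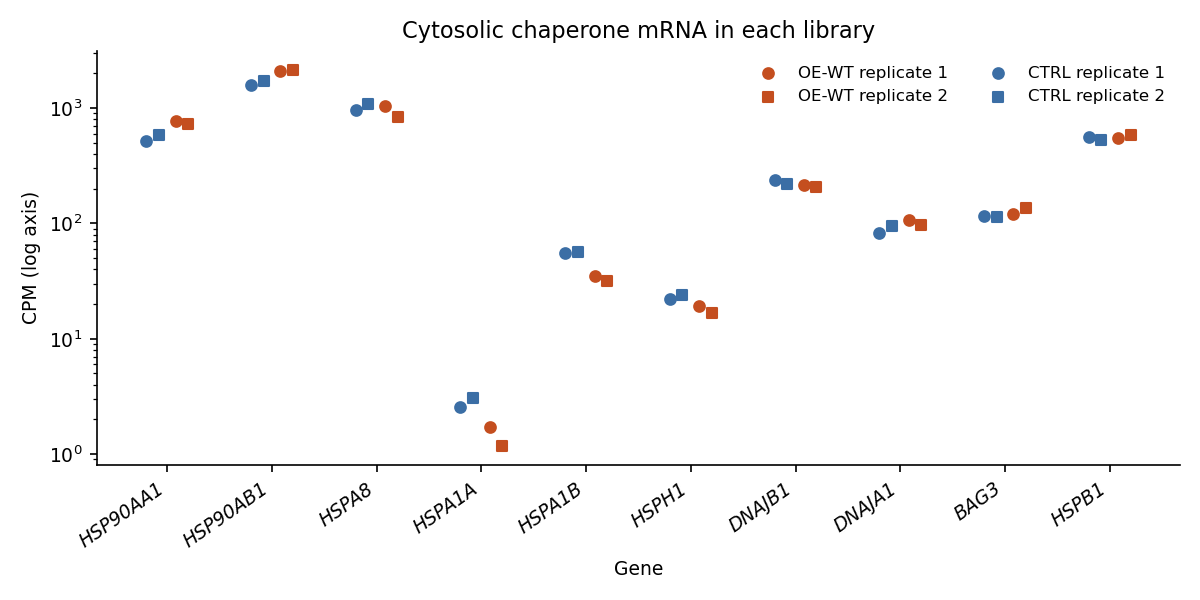
CPM of the 10 members in each library on a log axis; each point is 1 library, circles are replicate 1 and squares replicate 2. The OE-WT points lie above the CTRL points for HSP90AA1 and HSP90AB1 and below them for HSPA1A, HSPA1B and HSPH1, and levels run from 1.18 CPM (HSPA1A) to 2155 CPM (HSP90AB1).

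The HSP90 pair are paralogs, HSP90AA1 being the more stress-inducible and HSP90AB1 the more constitutive. HSP90AA1 (ENSG00000080824, chromosome 14, 102080742 to 102139699, GRCh38) had 774 and 729 CPM in OE-WT cells, against 517 and 586 CPM in CTRL cells. Both OE-WT libraries were above both CTRL libraries. Its level was 752 ± 32.2 CPM against 551 ± 49.1 CPM (SD, n = 2 each), 1.36-fold higher (log2 fold change 0.45, standard error 0.07, 95% confidence interval 0.30 to 0.59, adjusted p = 0.000104, edgeR). HSP90AB1 (ENSG00000096384, chromosome 6, 44246166 to 44253888) had 2098 and 2155 CPM in OE-WT and 1569.9 and 1726 CPM in CTRL, again without overlap. It rose 1.29-fold (log2 fold change 0.37, standard error 0.07, 95% confidence interval 0.22 to 0.52, adjusted p = 0.000761, edgeR). Both calls held under each of the 15 alternatives to the processing, with log2 fold changes from 0.36 to 0.54 for HSP90AA1 and from 0.28 to 0.44 for HSP90AB1. Their promoter stretches above hold 1 and 2 runs of 3 units, respectively.

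The balance between the paralogs did not separate the groups. HSP90AB1 had 2.71 and 2.96 counts for each HSP90AA1 count in OE-WT, against 3.04 and 2.95 in CTRL. These ratios overlap, and being taken within a library they do not depend on how libraries are scaled. The transcripts share no stretch of the 150-base read length, the longest common run being 23 bases. WDR20 overlaps 197 exon bases of HSP90AA1 on the opposite strand and had 90 to 140 counts, against 6647 to 7688 for HSP90AA1.

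HSPA1A and HSPA1B encode near-identical stress-inducible HSP70 proteins and lie next to each other on chromosome 6. HSPA1B (ENSG00000204388, 31827738 to 31830254) had 35.1 and 31.5 CPM in OE-WT and 55.8 and 56.3 CPM in CTRL. Both OE-WT libraries were below both CTRL libraries, by more than the spread in either group. It fell to 0.594 of the CTRL level (log2 fold change -0.75, standard error 0.09, 95% confidence interval -0.93 to -0.57, adjusted p = 1.99e-06, edgeR). Over 15 alternatives its log2 fold change ran from -0.84 to -0.69 and the call held in each.

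HSPA1A (ENSG00000204389, 31815543 to 31817946) had only 17 and 12 counts in OE-WT, against 33 and 38 in CTRL. This was 1.71 and 1.18 CPM against 2.57 and 3.08 CPM, without overlap. Its log2 fold change was -0.96 (standard error 0.32, 95% confidence interval -1.63 to -0.29, adjusted p = 0.0369, edgeR), a wide interval at this depth. The call was lost without OE-WT replicate 2 (log2 fold change -0.73, adjusted p = 0.233, edgeR). It was also lost without CTRL replicate 1 (-1.09, adjusted p = 0.0609, edgeR) and without CTRL replicate 2 (-0.82, adjusted p = 0.178, edgeR).

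The split between the HSPA1 genes is uncertain, because 69.6% of the 150-base windows of the HSPA1A transcript also occur in HSPA1B. Their longest shared run is 1715 bases. Reads from such windows can be placed on either gene or set aside, and which was done is not given in the sources used here. HSPA1B had 18.2 to 26.8 counts for each HSPA1A count, and the ranges of the groups overlap. Summed, the pair had 365 and 333 counts in OE-WT, against 751 and 731 in CTRL. The sum fell to 0.590 of the CTRL level (log2 fold change -0.76, standard error 0.08, adjusted p = 1.6e-06, edgeR). That sum kept its direction and its call under all 13 alternatives run for it. The pair's promoters, shown above, are 94.0% identical over the 250 bases before the start and carry the same pair of units, from base -106 in HSPA1A and from base -105 in HSPA1B. An lncRNA on the same strand overlaps 920 exon bases of HSPA1B and is not listed in the table.

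HSPA8 (ENSG00000109971, chromosome 11, 123057489 to 123063230) encodes the constitutive HSP70, HSC70. It had 1049.7 and 830.04 CPM in OE-WT and 955 and 1089 CPM in CTRL. The 2 OE-WT libraries span most of the range of all 4, and the groups overlap. Its log2 fold change was -0.12 (standard error 0.09, 95% confidence interval -0.30 to 0.06, adjusted p = 0.357, edgeR). Either OE-WT library decides its value, which was -0.30 without OE-WT replicate 1 (adjusted p = 0.0114, edgeR) and 0.03 without OE-WT replicate 2. HSPA8 shares no 150-base stretch with HSPA1B, and its window holds a second run of 3 units from base -230. Its annotated exons hold SNORD14C and SNORD14D, both at 0 counts in all libraries. An antisense lncRNA overlapping 555 of its exon bases is not listed in the table.

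Within each library the constitutive and the inducible HSP70 genes stood further apart in OE-WT. HSPA8 had 29.9 and 26.3 counts for each HSPA1B count in OE-WT, against 17.1 and 19.4 in CTRL. HSP90AA1 had 22.1 and 23.1 counts for each HSPA1B count in OE-WT, against 9.26 and 10.4 in CTRL. Neither ratio overlaps between groups, and neither depends on the scaling between libraries. HSP90AA1 was higher and HSPA1B lower without overlap, so the separation of their ratio was fixed in advance. That of HSPA8 to HSPA1B also follows from the single genes. Over pairs of an OE-WT and a CTRL library, the lowest OE-WT over CTRL ratio was 0.762 for HSPA8, and the highest was 0.628 for HSPA1B. Among single tested genes, 60.2% did not overlap, which is not a background for ratios of 2 genes. These ratios are given as values, without a test.

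HSPH1 (ENSG00000120694, chromosome 13, 31134973 to 31162388) encodes HSP110, a nucleotide exchange factor of HSP70. It had 19.3 and 16.6 CPM in OE-WT and 22.0 and 23.9 CPM in CTRL, without overlap. It fell to 0.784 of the CTRL level (log2 fold change -0.35, standard error 0.12, 95% confidence interval -0.60 to -0.11, adjusted p = 0.0382, edgeR). The call was lost without OE-WT replicate 2 (-0.25, adjusted p = 0.233, edgeR) and without CTRL replicate 2 (-0.29, adjusted p = 0.177, edgeR). It was also lost with DESeq2's Wald test (adjusted p = 0.257, and 0.219 on the genes of edgeR's filter) and with no filter beyond 1 count (adjusted p = 0.0707, edgeR).

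BAG3 (ENSG00000151929, chromosome 10, 119651380 to 119677819) is another exchange factor, which links HSP70 and small heat shock proteins to autophagy. It had 119.6 and 135 CPM in OE-WT and 117 and 114 CPM in CTRL, close but without overlap. Its log2 fold change was 0.14 (95% confidence interval -0.01 to 0.29, adjusted p = 0.172, edgeR). Without OE-WT replicate 1 it was 0.23 and passed (adjusted p = 0.0472, edgeR).

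The J-domain members deliver substrates to HSP70. DNAJB1 (ENSG00000132002, chromosome 19, 14514769 to 14560391), the main stress-inducible partner of HSP70, had 214 and 207 CPM in OE-WT and 239.9 and 219 CPM in CTRL. The OE-WT libraries were the lower 2, by a small margin (log2 fold change -0.13, 95% confidence interval -0.27 to 0.01, adjusted p = 0.185, edgeR). TECR overlaps 525 exon bases of DNAJB1 on the opposite strand, and had 1487 and 1744 counts in OE-WT, against 2626 and 2324 in CTRL. TECR fell (log2 fold change -0.29, adjusted p = 0.00631, edgeR), while DNAJB1 did not pass the test. Without the strand setting of the counting, reads in the shared bases cannot be told apart. DNAJA1 (ENSG00000086061, chromosome 9, 33025273 to 33039907) is a J-domain protein of the constitutive HSP70 cycle, and had 107 and 96.5 CPM in OE-WT and 83.3 and 94.8 CPM in CTRL. Its OE-WT libraries were the higher 2, the lower of them by 1.02-fold over the nearer CTRL library. DNAJA1 had a log2 fold change of 0.19 (95% confidence interval 0.03 to 0.35, adjusted p = 0.0808, edgeR). It passed without OE-WT replicate 2 (0.26, adjusted p = 0.0232, edgeR) and without CTRL replicate 2 (0.29, adjusted p = 0.0141, edgeR).

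HSPB1 (ENSG00000106211, chromosome 7, 76302673 to 76304295) encodes HSP27, a small heat shock protein that holds unfolded proteins without ATP. It had 551 and 588 CPM in OE-WT and 559 and 530.1 CPM in CTRL, and the groups overlap. HSPB1 had a log2 fold change of 0.07 (95% confidence interval -0.07 to 0.20, adjusted p = 0.526, edgeR). Pseudogenes of HSPB1 carried counts equal to 0.282% of its own, the largest such share among the members.

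**Figure D3:**
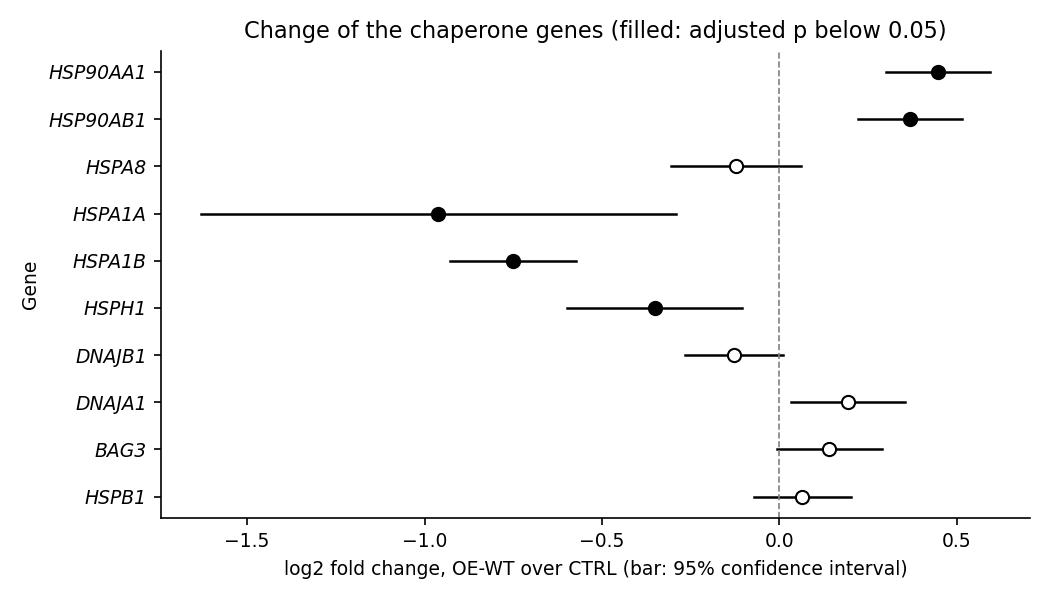
The log2 fold change of each member, OE-WT over CTRL, with its 95% confidence interval as a bar; filled points have an adjusted p below 0.05 in edgeR's quasi-likelihood test. HSP90AA1 (0.45) and HSP90AB1 (0.37) lie above 0, HSPA1A (-0.96), HSPA1B (-0.75) and HSPH1 (-0.35) lie below it, and HSPA1A has the widest bar.

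Compared per length, as CPM per kilobase of the canonical transcript, the CTRL order ran from HSPB1 (700.5 ± 25.9, SD, n = 2) through HSP90AB1 (645 ± 43.4), HSPA8 (451 ± 41.7) and HSP90AA1 (171 ± 15.2) to DNAJB1 (102 ± 6.46). BAG3 (45.2 ± 0.679), DNAJA1 (38.4 ± 3.52), HSPA1B (22.3 ± 0.127), HSPH1 (4.37 ± 0.252) and HSPA1A (1.18 ± 0.153) followed. No 2 neighbours in that order overlapped. In OE-WT cells HSP90AB1 (832 ± 15.8) stood above HSPB1 (733 ± 33.8), and the rest of the order was the same. The order depends on the length used: per exon base of the whole gene, HSP90AB1 was first in CTRL as well, and DNAJB1 moved from 5th to 7th. The 10 genes together took 0.472% of all counts in both OE-WT libraries, against 0.428% and 0.454% in CTRL.

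Beyond the members, 7 lists of the chaperone system held 100 genes, of which 82 were tested. Of these, 17 rose (20.7%) and 4 fell (4.88%), beside 9.44% and 11.6% of all genes. With library size only in place of TMM scaling, 8 rose and 8 fell, so this split depends on the scaling. Among the genes named from the lists, VCP, DNAJC7, DNAJC9, HSPBP1, HSPE1, CCT5 and CCT6A rose with TMM scaling and did not pass with library size only. With DESeq2's Wald test CCT6A, DNAJC7, DNAJC9, HSPBP1 and PPID did not pass, with or without edgeR's filter, and CHORDC1 did not pass without it. In edgeR with no filter beyond 1 count, CCT6A, DNAJC7 and HSPBP1 did not pass. Over all genes, scaling by library size only moved the share of calls that are higher from 44.8% to 23.0% and the median log2 fold change from 0.01 to -0.08.

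HSF1 and HSF2, the heat shock factors with the most counts, did not pass the test. HSF1 had 62.6 and 70.2 CPM in OE-WT and 71.4 and 74.9 CPM in CTRL. HSF1's groups do not overlap, and the log2 fold change was -0.14 (95% confidence interval -0.30 to 0.02, adjusted p = 0.207, edgeR). HSF2 had 5.54 and 6.98 CPM in OE-WT and 7.54 and 7.63 CPM in CTRL (log2 fold change -0.28, adjusted p = 0.318, edgeR). HSF4, with a mean of 17.2 counts and the lowest value of its list, had a log2 fold change of -1.06 (adjusted p = 0.0525, edgeR). HSF4 did pass with library size only (-1.15, adjusted p = 0.0265, edgeR), with edgeR's exact test (adjusted p = 0.0449) and with its likelihood ratio test (adjusted p = 0.0291). Of 11 tested heat shock factors and regulators, 1 rose and 1 fell (9.09% each), with a median of -0.09. These shares are near the 9.44% of all tested genes that rose and the 11.6% that fell. VCP, an ATPase that extracts ubiquitinated proteins, rose (0.25, adjusted p = 0.0109, edgeR), a call lost without CTRL replicate 1 (0.17, adjusted p = 0.181). MAPKAPK2, a kinase that phosphorylates HSPB1, fell (-0.42, adjusted p = 0.000327, edgeR) and held under all 15 alternatives. These values are mRNA levels, and HSF1 is known to be controlled mainly as a protein.

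Of 6 other HSP70 and HSP110 genes tested, 1 rose and 1 fell (16.7% each), beside 9.44% and 11.6% of all tested genes. Their median was 0.15. HSPA4, an HSP110 exchange factor related to HSPH1, rose (log2 fold change 0.57, adjusted p = 0.00155, edgeR). It had 58.2 and 47.8 CPM in OE-WT and 29.8 and 41.7 CPM in CTRL, and its log2 fold change ran from 0.34 without CTRL replicate 1 to 0.83 without CTRL replicate 2, both still past the threshold. HSPA4 did not pass with DESeq2's Wald test on the genes of edgeR's filter (adjusted p = 0.177). HSPA6, a strictly stress-inducible HSP70, had a mean of 35.5 counts, below the minimum of 50 for naming, and is named because it is the 1 gene of this list that fell. It had 2.22 and 1.87 CPM in OE-WT and 3.58 and 4.46 CPM in CTRL (log2 fold change -0.97, adjusted p = 0.0141, edgeR). Its call was lost without OE-WT replicate 2 (-0.86, adjusted p = 0.0706) and without CTRL replicate 2 (-0.80, adjusted p = 0.107), and with DESeq2's Wald test on the genes of edgeR's filter (adjusted p = 0.14). HSPA6 shares no 150-base stretch with HSPA1B, and its window also holds a run of 3 heat shock element units.

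Of 20 other cytosolic J-domain genes tested, 2 rose (10.0%, near the 9.44% of all tested genes) and 0 fell, with a median of 0.11. DNAJC7, a co-chaperone that also binds HSP90, rose by 0.37 on the log2 scale (adjusted p = 0.0425, edgeR), a call lost without OE-WT replicate 1 (0.19, adjusted p = 0.419) and without CTRL replicate 1 (0.21, adjusted p = 0.344). DNAJC9, a histone chaperone, rose by 0.31 (adjusted p = 0.00502, edgeR). Of the 6 other BAG proteins and exchange factors, 1 rose (16.7%) and 0 fell, with all 6 log2 fold changes above 0 and a median of 0.27. The 1 that rose, HSPBP1, an exchange factor that inhibits the HSP70 cycle, had 0.30 (adjusted p = 0.0144, edgeR), lost without CTRL replicate 1 (0.19, adjusted p = 0.238). Of 10 other small heat shock genes only HSPB8 had enough counts to test, and it did not pass (-0.29).

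By number, the co-chaperones of HSP90 and HSP70 held the most calls of these 7 lists, which differ in how many genes were tested. Of 25 tested, 10 rose and 1 fell, with a median of 0.18. The share that rose was above the 9.44% of all tested genes, and the share that fell was below the 11.6%. FKBP5, an HSP90-bound immunophilin that tunes steroid receptors, had 10.7 and 9.83 CPM in OE-WT and 4.28 and 5.68 CPM in CTRL, 2.06-fold higher (log2 fold change 1.04, adjusted p = 0.00037, edgeR). CHORDC1, an HSP90-binding protein, rose 1.59-fold (log2 fold change 0.67, adjusted p = 0.00319, edgeR). NUDC, a co-chaperone of dynein-linked clients, rose by 0.44 on the log2 scale (adjusted p = 8.29e-05, edgeR). PPID, the cyclophilin of HSP90 complexes, rose by 0.35 (adjusted p = 0.00794, edgeR), lost without OE-WT replicate 1 (0.29, adjusted p = 0.0582) and CTRL replicate 1 (0.26, adjusted p = 0.11).

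Of 25 other classic HSF1 targets tested, 8 rose and 2 fell, with a median of 0.13; CHORDC1 and HSPA6 are among them. HSPD1, the mitochondrial HSP60, rose by 0.44 on the log2 scale (adjusted p = 0.00038, edgeR). STIP1, the adaptor that passes clients from HSP70 to HSP90, rose by 0.33 (adjusted p = 0.000685, edgeR), and ST13, an HSP70 cofactor, by 0.32 (adjusted p = 0.00133, edgeR). Calls ran in both directions in the HSF1 targets and in the members, but in different shares. Of the 10 members, 2 rose and 3 fell. In both lists the share that rose was above the 9.44% of all tested genes. The share that fell was below the 11.6% of all tested genes for the targets. For the members it was above 11.6% in this test, but the 3 calls include both HSPA1 genes, whose split is uncertain. With the HSPA1 pair summed 2 calls fell, and with DESeq2's Wald test 1 member fell.

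**Figure D4:**
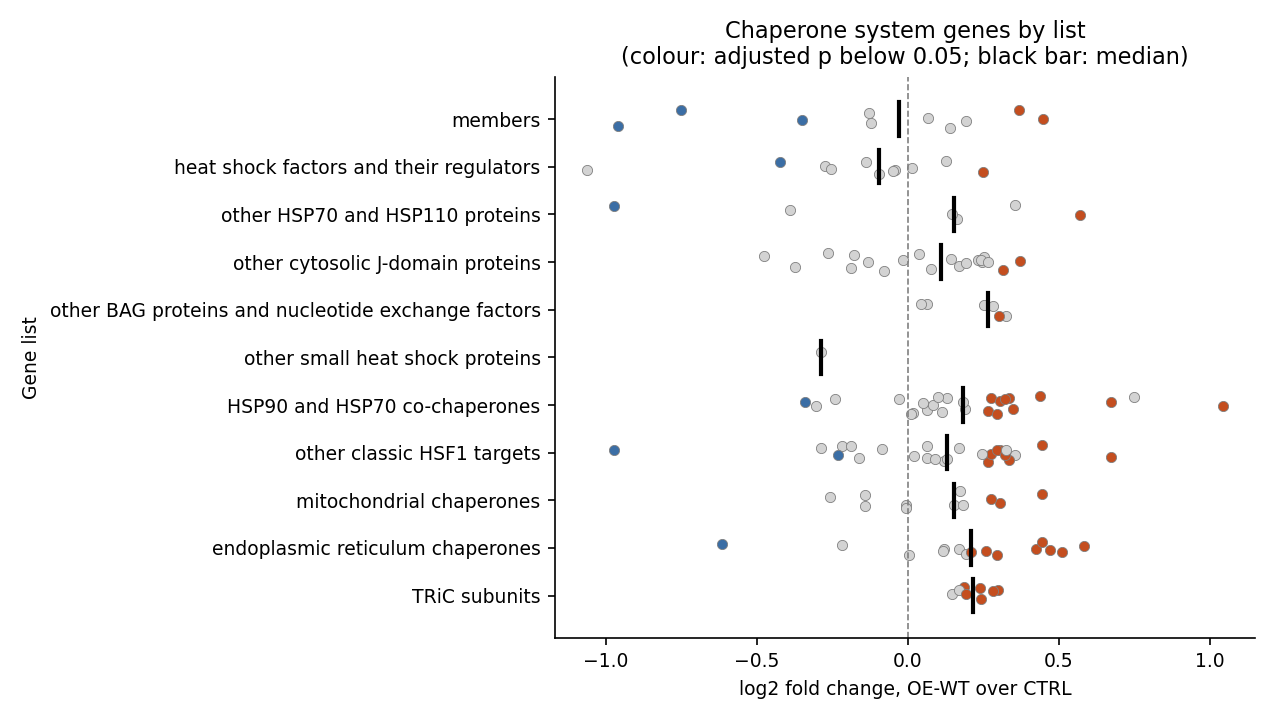
The log2 fold change, OE-WT over CTRL, of each tested gene in the member list, the 7 chaperone system lists and 3 comparison lists; each point is a gene, red points rose and blue points fell at an adjusted p below 0.05, grey points did not pass, and black bars are medians. The co-chaperone list has 10 red points and 1 blue point, and FKBP5 (1.04) is its rightmost.

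Chaperones of other compartments were read for comparison, beside the 9.44% of all tested genes that rose and the 11.6% that fell. Of 11 mitochondrial chaperones 3 rose and 0 fell (median 0.15), led by HSPD1 and by HSPE1, its lid (0.31, adjusted p = 0.00194, edgeR). Of 15 endoplasmic reticulum chaperones 8 rose and 1 fell (median 0.21). DNAJC3 (0.58, adjusted p = 6.13e-05, edgeR) and CRELD2 (0.51, adjusted p = 1.55e-05, edgeR) rose most, and SIL1, the exchange factor for the endoplasmic reticulum HSP70, fell (-0.62, adjusted p = 6e-06, edgeR). Of the 8 subunits of TRiC, the cytosolic chaperonin for actin and tubulin, 6 rose and 0 fell (median 0.22). CCT5 had 0.30 (adjusted p = 0.00278, edgeR) and CCT6A had 0.28 (adjusted p = 0.0178, edgeR). CCT6A was lost without OE-WT replicate 1 (0.14, adjusted p = 0.279) and without CTRL replicate 1 (0.19, adjusted p = 0.165).

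**Figure D5:**
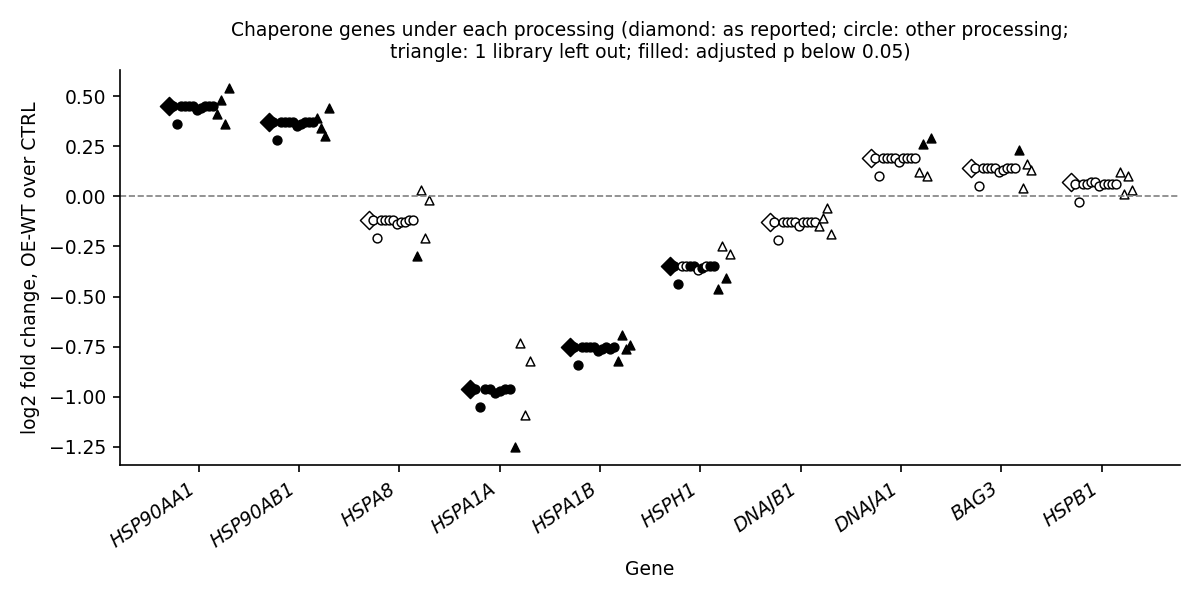
The log2 fold change of each member under every processing tried; the diamond is the value as reported, circles are other processing, triangles leave out 1 library, and filled symbols have an adjusted p below 0.05. HSP90AA1, HSP90AB1 and HSPA1B are filled throughout, while HSPA8 runs from -0.30 to 0.03.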

How the data were processed

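The RNA sequencing libraries were made from poly(A) RNA with a stranded kit, per the labels; the paper's methods describe ribosomal RNA removal. The deposited values are raw read counts per gene on GRCh38. The paper's methods name HISAT2 and HTSeq, and the submitters' processing notes name HISAT2 2.2.1, featureCounts 2.0.0 and DESeq2 1.34.0. The annotation release and strand setting are not given in the sources used here. The paper gives 3 biological replicates, and the labels and table hold 2 libraries per group with 0 other sample columns.

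GENCODE release 44 matched 57532 identifiers. Genes passed edgeR's filter by group (minimum count 10), and counts were TMM-normalized and tested with edgeR 4.0.16 in R 4.3.3 (quasi-likelihood, no replicate block, Benjamini-Hochberg over 14133 genes, threshold 0.05). Standard errors and 95% intervals come from that fit. CPM use TMM-scaled totals, except the marker sums and the floor for a count of 0, which use raw totals. P-values measure the spread between libraries, which may be technical. The paper names biological replicates, and the other sources used here state nothing beyond duplicate culture. The steps were tested on simulated data. A count of 0 allows up to 3 counts, 0.290 CPM in the smallest library and 0.242 in the largest, for counting error only.

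The members and lists were chosen with earlier results of these data known. Named genes are all members, TRMT6, TRMT61A, HSF1, HSF2 and overlapping genes. Per list and direction, the 4 largest changes that passed with a mean of at least 50 counts were also named (2 for comparison lists). A gene in several lists counts in each. EPCAM, KRT20, VIL1, CDX1, HSF4, HSPA6 and HSPB8 were named after their values were seen. Alternatives were scaling by RLE or by library size alone, DESeq2 1.42.0 on genes with at least 1 count and, added after seeing the data, on the genes of edgeR's filter, the exact and likelihood ratio tests of edgeR, 2 other filters, a replicate block, each library left out, the HSPA1 pair summed, and pseudogene reads added. Figures were drawn with matplotlib 3.10.9 under Python 3.11.15. Ribosome profiling and tRNA sequencing were not analysed here. Some genes of the lists that passed the test are counted but not reported by name here.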

Additional observations from a re-analysis of the deposited data

How the results depend on the processing

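Of 147 member values under alternatives that gave an adjusted p, 132 kept their direction and their side of the threshold. Members that rose numbered 2, and from 2 to 3 with a library left out. DESeq2's Wald test was run on 26095 genes, without edgeR's filter, and, chosen after seeing the data, on the 14133 that pass it. Members that fell went from 3 to 1 in both runs, where HSPA1A had no adjusted p, and ranged from 1 to 4 with a library left out. Pathway genes that rose numbered 17, and 8 with library size only, 11 in either DESeq2 run and 11 to 18 with a library left out. Pathway genes that fell numbered 4, and 8 with library size only, 2 in either DESeq2 run and 2 to 3 with a library left out. HSPA8 ranged from -0.30 to 0.03 with a library left out, turning positive without OE-WT replicate 2, and HSPB1 turned to -0.03 with library size only; the causes were not tested. With a library left out, the lone library is assumed to vary like the other group.

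The replicate numbers gave no sign of pairing (correlation of deviations -0.068 across genes, 2 pairs). With a replicate block, 2 members rose and 2 fell, the lost call being HSPH1 (adjusted p = 0.0501, edgeR), and 16 pathway genes rose and 3 fell. Over all genes the calls went from 2976 to 2658 with the block, to 2271 in edgeR with no filter beyond 1 count, to 1220 with DESeq2 without edgeR's filter and 1373 with it, and to 1903 without CTRL replicate 1. At this depth, low genes such as HSPA1A have wide intervals.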
